A study of Mus musculus with 6 samples.

Results

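Aminoacyl-tRNA synthetases join each amino acid to its transfer RNA (tRNA) before translation. Most amino acids are served by a pair of nuclear genes, 1 for the cytosolic enzyme and 1, usually named with a final 2, for the mitochondrial enzyme. Gars and Kars are exceptions that supply both compartments from a single gene. Several cytosolic enzymes sit in a multi-synthetase complex held together by the scaffold proteins Aimp1, Aimp2 and Eef1e1, and many cytosolic genes are known targets of ATF4, a transcription factor that raises amino acid supply and charging genes when amino acids are short. The genes described here are a list of symbols. No measured value enters the rule that defines the list, but it was chosen with earlier results of these data known. The genes are 38 of the 24391 listed in the count table. They comprise 20 genes of cytosolic synthetases, 15 of mitochondrial synthetases and the 3 scaffold genes.

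The cells were Neuro2a, a mouse neuroblastoma line, and their poly(A) RNA was sequenced in 6 libraries. Cells of both groups were kept for 18 h in the medium D-MEM(-SG), as the labels spell it, which held 10% FBS. The 3 control libraries are from cells given vehicle and the 3 D-serine libraries from cells given 5 mM D-serine, the mirror image of the L-serine that is used in proteins. The question that the design addresses is how D-serine alters gene expression in this line.

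Total counts per library lay between 32518483 and 40024265 with no detectable difference between groups (p = 0.4 by an exact two-sided permutation of the libraries, which at 3 against 3 cannot go below 0.1). Nothing in the labels says that libraries came from separate cultures, so p-values measure the spread between these libraries, which may be technical. D-serine replicate 1 stood apart from its group, with a chi-square per degree of freedom of 17.7 and 13.9 against its fellows where the other pairs within a group gave 3.88 to 6.54. It also had the steepest dependence on gene length, with a slope of -0.072 log2 CPM per doubling of exonic length, against -0.0040 to 0.036 in the other 5 libraries. Of the sympathoadrenal and neuronal markers, Hand2 (242 CPM in control) and Tubb3 (490 CPM) were abundant, whereas Dbh (1.53 CPM) and Th (1.49 CPM) were low. Fibroblast, leukocyte, glial and endothelial markers reached at most 13.9 CPM (Mbp) in control. CPM is the count of a gene scaled to a common library size. Over all 13366 tested genes, D-serine libraries had 647 genes higher and 655 lower at an adjusted p under 0.05 (9.74% in either direction, 4.9% lower, 4.84% higher). This division moved to 914 and 412 under upper quartile scaling and to 944 and 412 with library totals.

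Cytosolic synthetase mRNAs were lower with D-serine in 5 of 20 genes and higher in 0, where the background of genes called lower is 4.9%. That background is not matched for level or precision. The median control level was 405 CPM in the cytosolic genes and 28.9 CPM in all tested genes, and smaller changes can be called in abundant genes. The 5 were Cars, Iars, Tars, Vars and Yars, whose products charge tRNA with cysteine, isoleucine, threonine, valine and tyrosine. The changes were small: the mRNA fell by 17.0% in Cars, the most, and fell by 9.03% in Yars, the least. None of the 15 mitochondrial genes and none of the 3 scaffold genes passed the threshold in edgeR's quasi-likelihood test. At an unadjusted p under 0.05 there were 6 lower and 2 higher cytosolic genes, 1 lower and 2 higher mitochondrial genes and 0 scaffold genes, where 14.4% of all tested genes were lower and 13.8% higher. The counts of 2 higher genes, in either compartment, are at or near that background. The D-serine libraries lay below every control library in 9 of the 20 cytosolic genes and above in 2, against 16.6% and 16.2% of all tested genes. The DESeq2 Wald test likewise called 0 mitochondrial and 0 scaffold genes.

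The median log2 fold change was -0.039 over the 20 cytosolic genes and 0.013 over the 15 mitochondrial genes, against 0.0053 over all tested genes. Of the cytosolic genes 14 had a negative sign, against 48.5% of all tested genes, and 6 of the 15 mitochondrial genes did. Under upper quartile scaling, which moves the median of all genes to 0.035, the cytosolic median was -0.0089 and 11 of 20 signs were negative. The mitochondrial median turned to -0.012 without D-serine replicate 2. The cytosolic genes were measured more precisely, with a median standard error of 0.042 on the log2 scale. It was 0.069 for the mitochondrial genes and 0.072 for all tested genes. The plot of fold changes by compartment shows all 38 genes.

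**Figure D1:**
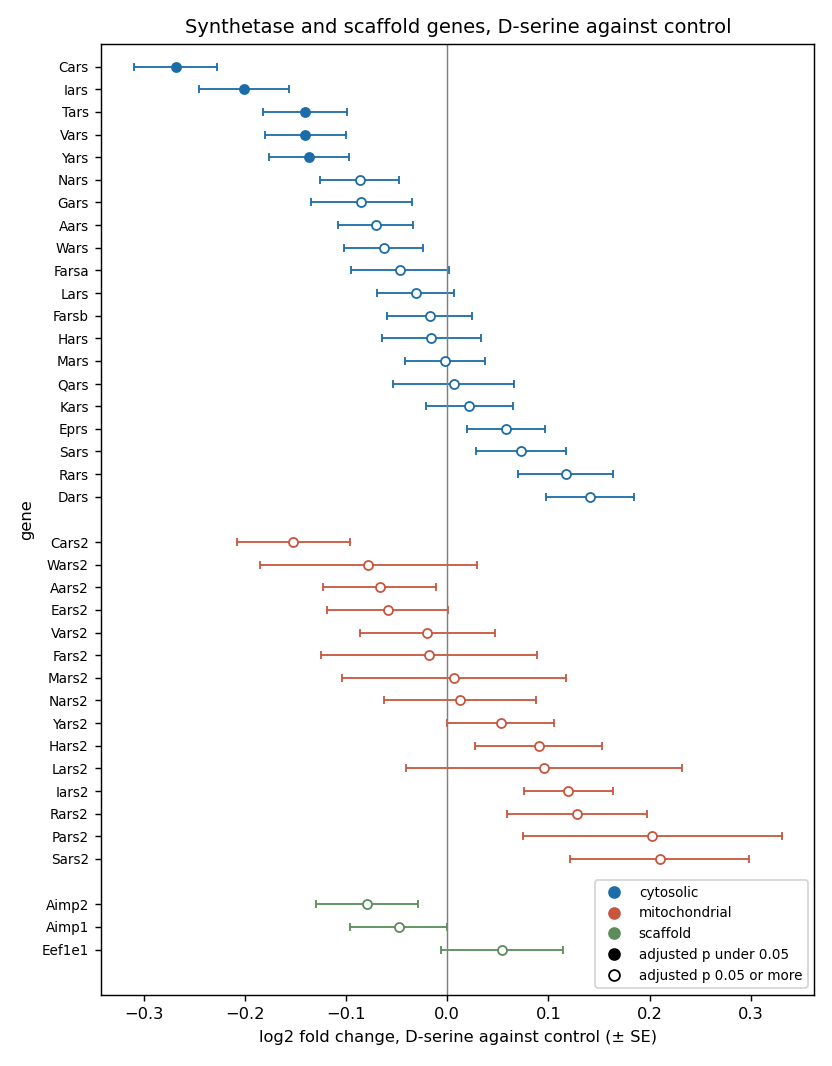
Log2 fold change of D-serine against control (x axis, with its standard error) for each synthetase and scaffold gene (y axis), from edgeR on 3 libraries per group. Filled points mark the 5 cytosolic genes with an adjusted p under 0.05, and open points the others, including all 15 mitochondrial and 3 scaffold genes.

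Cars encodes the cysteine enzyme and lies on chromosome 7 at 150743135 to 150785995, minus strand, in the deposited coordinates. Its level was 267, 264 and 270 CPM in the control libraries and 225, 225 and 214 CPM in the D-serine libraries. Every D-serine library was below every control library, with a gap wider than the spread within either group. The group means were 267 ± 2.81 and 222 ± 6.57 CPM (SD, n = 3). The log2 fold change was -0.27 with an SE of 0.041 (adjusted p = 0.0059 in edgeR). Cars kept its call in all 16 alternative analyses, with a highest adjusted p of 0.047 when control replicate 2 was left out.

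Iars encodes the isoleucine enzyme, a member of the multi-synthetase complex, and lies on chromosome 13 at 49777499 to 49829636, plus strand. It measured 485, 460 and 473 CPM in control and 389, 425 and 419 CPM with D-serine. The groups did not overlap, and D-serine replicate 1 was the lowest library. The log2 fold change was -0.20 (SE 0.045, edgeR adjusted p = 0.019).

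Tars, the cytosolic threonine enzyme (chromosome 15, 11313418 to 11329413, minus strand), measured 269, 280 and 283 CPM in control and 255, 254 and 246 CPM with D-serine. Its log2 fold change was -0.14 (SE 0.041, edgeR adjusted p = 0.049). The highest D-serine library lay just under the lowest control library.

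Vars, the valine enzyme, which associates with elongation factor 1 (chromosome 17, 35137852 to 35153274, plus strand), measured 411, 409 and 431 CPM in control and 378, 374 and 383 CPM with D-serine. The log2 fold change was -0.14 (SE 0.040, edgeR adjusted p = 0.044). Yars, the tyrosine enzyme (chromosome 4, 128867039 to 128896851, plus strand), measured 458, 455 and 463 CPM in control and 427, 405 and 419 CPM with D-serine. Its log2 fold change was -0.14 (SE 0.039, edgeR adjusted p = 0.045). In both genes the groups were apart. Yars shares 30 of its 2874 exonic bases with C77080 on the opposite strand, and the other 4 genes share none with a listed gene.

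These calls rest on few libraries. Without control replicate 1, control replicate 2, control replicate 3 or D-serine replicate 3, only Cars of the 20 cytosolic genes was called lower, when 0.332%, 0.155%, 1.47% and 1% of all tested genes were. Without D-serine replicate 2 there were 2 lower genes (6.37% of all tested genes), under upper quartile scaling or library totals also 2 (3.08%), and without D-serine replicate 1, the library that stood apart, 7 lower and 1 higher (6.76% and 783 of 13553 genes).

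**Figure D2:**
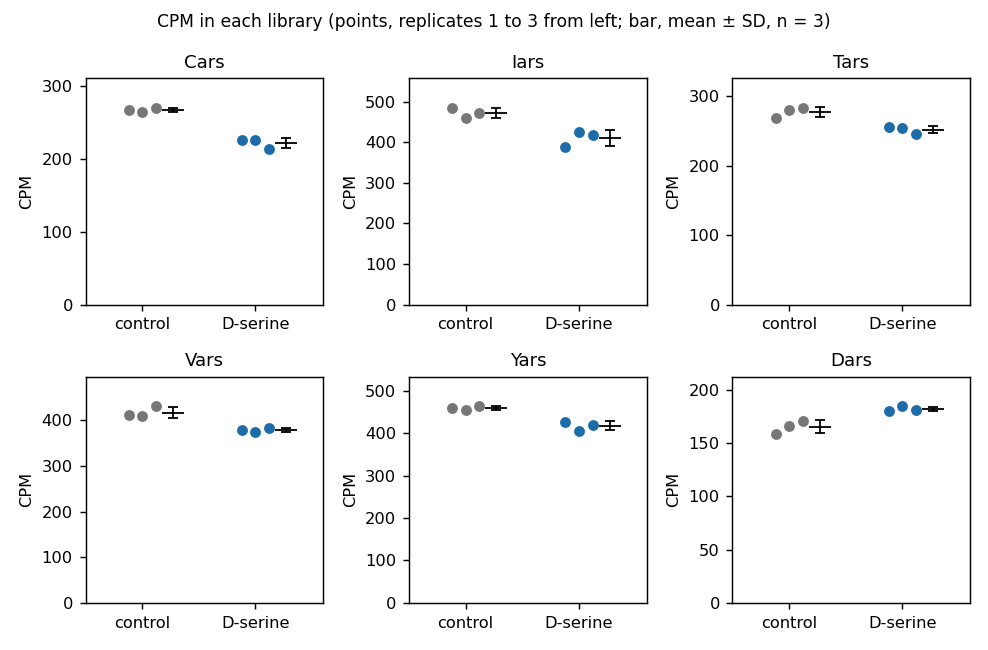
CPM (y axis, from 0) in each control and D-serine library for Cars, Iars, Tars, Vars, Yars and Dars, with replicates 1 to 3 from left to right and the mean ± SD (n = 3) beside them. The groups do not overlap in any of the 6 genes, and Dars is the gene in which D-serine is above control.

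Of the remaining 15 cytosolic genes, log2 fold changes ran from -0.087 in Nars to 0.14 in Dars. Nars, the asparagine enzyme, had 724, 731 and 740 CPM in control and 713, 671 and 682 CPM with D-serine, without overlap (edgeR adjusted p = 0.17). Without D-serine replicate 1 it was called lower (log2 fold change -0.11, edgeR adjusted p = 0.021). Dars and Nars were singled out after their values were seen. Dars, the aspartate enzyme of the complex, had the largest positive value, with 159, 166 and 171 CPM in control and 180, 184 and 181 CPM with D-serine. The groups did not overlap, but the adjusted p was 0.057 (edgeR, log2 fold change 0.14, SE 0.043). Dars was called higher in 8 of the 16 alternatives, among them the DESeq2 Wald test (adjusted p = 0.045).

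The enzymes for serine and glycine were among those without a call. Sars, which charges tRNA with serine, measured 498, 514 and 529 CPM in control and 568, 518 and 535 CPM with D-serine. The libraries of the groups overlapped, and the log2 fold change of 0.073 had an SE of 0.044 (edgeR adjusted p = 0.30). Gars, for glycine, measured 802, 817 and 826 CPM in control and 815, 786 and 705 CPM with D-serine, with the lowest value in D-serine replicate 3. Its log2 fold change was -0.085 (SE 0.050, edgeR adjusted p = 0.29), and -0.13 without D-serine replicate 1, where it was called lower (edgeR adjusted p = 0.028).

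Groups of cytosolic genes set by known properties differed in how many were called. Of the 12 enzymes that work outside the multi-synthetase complex, 11 had a negative sign and 4 were called lower, with a median log2 fold change of -0.078. Of the 8 complex-bound enzymes, 3 had a negative sign and 1, Iars, was called lower, with a median of 0.014. Of 12 cytosolic genes commonly listed as ATF4 targets, 10 had a negative sign and 4 were called lower (median -0.078). Among the other 8, 4 had a negative sign and 1, Vars, was called lower (median -0.0047). Genes called lower were 4.9% of all tested genes, and the 1 of 8 in each split is not far from that share. Cars, Tars and Yars are counted among the 4 called genes of both splits, so the splits are not independent. The differences between these groups were not tested.

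The promoters of the cytosolic genes were searched for letters of the C/EBP-ATF response element, the type of site through which ATF4 acts at amino acid response genes. The core TGATGNAA was searched on both strands in RefSeq windows of 250 bases before to 50 after a gene's start (GRCm38.p6). Of the 13 cytosolic genes with a window, 5 held the letters, against 0 of 13 mitochondrial genes, 0 of 3 scaffold genes and 3.97% of all 32851 windows (2.35% of the windows of tested genes). The 5 were Iars, Tars, Yars, Gars and Aars. The stretches are shown because 3 of the 5 genes called lower carry them close to the start. Each is written 5′ to 3′ along the gene's strand, and the capitals mark the match, which is the reverse complement of the core in all but Yars.
Iars, chr13:49682126-49682155, plus strand: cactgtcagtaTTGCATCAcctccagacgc
Tars, chr15:11399655-11399684, minus strand: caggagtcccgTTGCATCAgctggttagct
Yars, chr4:129189895-129189924, plus strand: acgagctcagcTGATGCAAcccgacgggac
Gars, chr6:55037960-55037989, plus strand: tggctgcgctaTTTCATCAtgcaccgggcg
Aars, chr8:111033840-111033869, plus strand: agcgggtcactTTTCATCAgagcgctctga

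The first base of the match lay 15 bases before the start in Tars and 30 before it in Gars. It lay 7 bases after the start in Iars, 3 after it in Yars and 9 after it in the stretch shown for Aars, with the start counted as 0. Aars held a further match, not shown, with its first base 112 bases before the start. Bases after the start were found near the beginning of an annotated GENCODE transcript for Iars, Tars, Yars and Gars, but not for Aars. The distances in Aars therefore rest on the RefSeq start alone. The 5 genes with the letters all had negative log2 fold changes, from -0.20 in Iars to -0.071 in Aars, and 3 of them were called lower. The 8 genes with a window but without the letters, Dars, Eprs, Farsa, Farsb, Kars, Mars, Qars and Sars, ranged from -0.047 to 0.14 and none was called. The medians were -0.14 and 0.014. This split is not independent of the earlier ones. The 5 genes with the letters are all commonly listed as ATF4 targets, and of them only Iars is complex-bound. Of the genes without the letters, Dars, Eprs, Kars, Mars and Qars are complex-bound. Cars, Hars, Lars, Nars, Rars, Vars and Wars were not matched to a window. These are counts over few genes, given with no test, and a match is not evidence of binding.

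**Figure D3:**
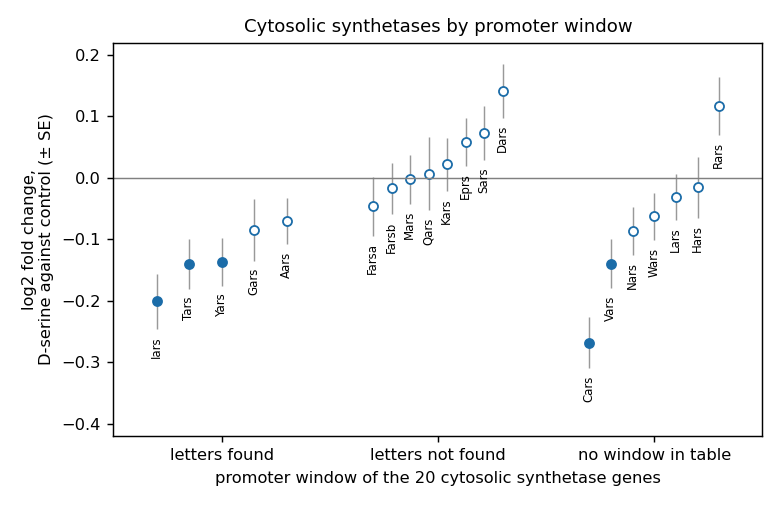
Log2 fold change of D-serine against control with its standard error (y axis) for the 20 cytosolic synthetase genes, split by whether the promoter window held the response element letters (x axis). Filled points are called lower. The 5 genes with the letters lie between -0.20 and -0.071, and the 8 genes without them between -0.047 and 0.14.

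Mitochondrial synthetase mRNAs had log2 fold changes from -0.15 in Cars2 to 0.21 in Sars2, and none passed the threshold. Cars2, the mitochondrial cysteine enzyme, measured 44.2, 43.8 and 42.6 CPM in control and 41.2, 38.1 and 38.1 CPM with D-serine. The groups did not overlap (log2 fold change -0.15, SE 0.056, edgeR adjusted p = 0.099). Iars2, the isoleucine enzyme, measured 101, 105 and 102 CPM in control and 109, 114 and 112 CPM with D-serine, all above control (log2 fold change 0.12, SE 0.044, edgeR adjusted p = 0.097). Iars2 shares 85 of its 3540 exonic bases with Rab3gap2 on the opposite strand. Without D-serine replicate 1 both crossed the threshold, Cars2 downward (edgeR adjusted p = 0.034) and Iars2 upward (0.034).

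Sars2, the mitochondrial serine enzyme, measured 19.0, 20.1 and 24.0 CPM in control and 23.2, 26.2 and 23.7 CPM with D-serine. Control replicate 3 lay within the D-serine range, and the log2 fold change was 0.21 (SE 0.089, edgeR adjusted p = 0.14). Rars2, the arginine enzyme, measured 25.6, 26.9 and 26.6 CPM in control and 31.2, 28.4 and 26.8 CPM with D-serine (log2 fold change 0.13, SE 0.069, edgeR adjusted p = 0.24). D-serine replicate 3 lay within the control range. Without D-serine replicate 1 and in the other 15 alternatives, neither gene was called.

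Lars2, the mitochondrial leucine enzyme, was the most variable member and was singled out after its values were seen. It measured 268, 305 and 315 CPM in control and 226, 389 and 334 CPM with D-serine, so that D-serine replicate 1 was below every control library and the other D-serine libraries were above every one. The log2 fold change was 0.096 with an SE of 0.14 (edgeR adjusted p = 0.69), and 0.29 without D-serine replicate 1 (adjusted p = 0.0022). Rn45s, a ribosomal RNA transcript, measured 2553, 3252 and 3339 CPM in control and 2803, 3792 and 3574 CPM with D-serine, also with its highest values in D-serine replicates 2 and 3. Its part in the Lars2 values was not tested.

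Levels between genes are compared as CPM per kilobase of exon. In control, cytosolic genes ranged from 16.9 in Qars to 341 in Gars, with a median of 111. Mitochondrial genes ranged from 2.25 in Pars2 to 76.2 in Lars2, with a median of 9.90. After Gars, the next highest were Aars (289), Nars (276) and Eprs (265). Per library, cytosolic genes took between 0.868% and 0.895% of all counts and mitochondrial genes between 0.0705% and 0.0861%. The lowest count of a mitochondrial gene in a library was 232 and that of a cytosolic gene was 1483.

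The mean log2 CPM of the cytosolic genes exceeded that of the mitochondrial genes by 3.46, 3.48 and 3.47 in the control libraries and by 3.43, 3.38 and 3.37 in the D-serine libraries. The distance was smaller in every D-serine library than in every control library. This mean is given as a description with no test. Relative to the control mean, the cytosolic genes lay at -0.022, -0.051 and -0.061 and the mitochondrial genes at 0.016, 0.036 and 0.044 in D-serine replicates 1 to 3. Control replicate 1, at -0.023 for the cytosolic genes, was no higher than D-serine replicate 1, and control replicate 3, at 0.029 for the mitochondrial genes, was above D-serine replicate 1. The order of the D-serine libraries rests on Lars2: without it the mitochondrial genes lay at 0.045, 0.010 and 0.035, with the highest value in replicate 1 and that of replicate 2 below control replicate 3 (0.024).

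**Figure D4:**
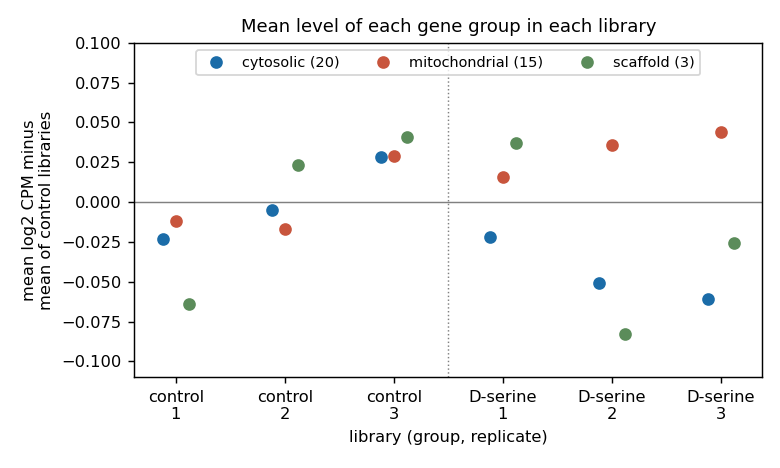
Mean log2 CPM of the 20 cytosolic, 15 mitochondrial and 3 scaffold genes in each library (x axis), minus its mean over the control libraries (y axis). The cytosolic point lies below the mitochondrial point in each D-serine library (-0.022 and 0.016 in replicate 1, -0.061 and 0.044 in replicate 3), but replicate 1 lies within the control range of both lists, and the mitochondrial values depend on Lars2.

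For 12 amino acids, the 38 genes include both the cytosolic enzyme and a mitochondrial enzyme of the same base name. The cytosolic gene had the lower log2 fold change in 11 of the 12 pairs, with a median difference of -0.11, and tryptophan was the exception. The signs of a pair were alike in 6 cases. Among these 12 pairs the widest separation was for isoleucine, with -0.20 (SE 0.045) for Iars and 0.12 (SE 0.044) for Iars2. Tyrosine followed, with -0.14 (SE 0.039) for Yars and 0.053 (SE 0.052) for Yars2. Tars2, the mitochondrial threonine enzyme, is not among the 38 genes, and its 0.14 (SE 0.062) stood farther from the -0.14 of Tars than the tyrosine genes did from each other. Cysteine was negative in both compartments, and the serine and arginine pairs were positive in both. In the alanine, methionine and arginine pairs the differences were -0.0038, -0.0091 and -0.011, smaller than the standard errors. The tryptophan difference of 0.015 was also smaller than both of its standard errors. For leucine the difference of -0.127 was smaller than the SE of Lars2 (0.14). For serine the values were 0.073 (SE 0.044) for Sars and 0.21 (SE 0.089) for Sars2. The difference within a pair was not tested, and all pairs share the same 6 libraries. The control level per kilobase of the cytosolic gene was between 1.5 times (leucine) and 86.5 times (tryptophan) that of its mitochondrial partner.

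**Figure D5:**
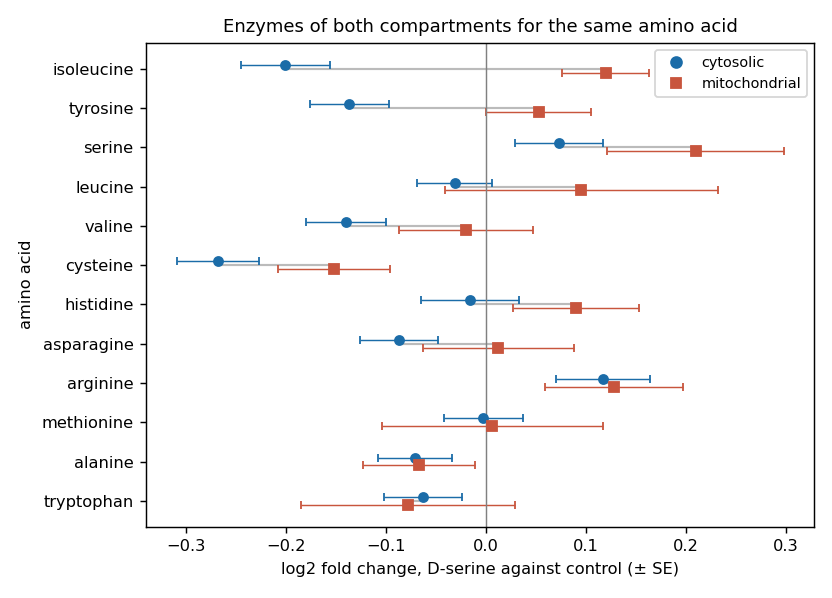
Log2 fold change of D-serine against control with its standard error (x axis) for the cytosolic (circles) and mitochondrial (squares) gene of 12 amino acids (y axis), ordered by the distance between them. The circle lies left of the square in 11 of 12 rows, most for isoleucine (-0.20 and 0.12).

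None of the 3 scaffold genes was called, and their control and D-serine libraries overlapped. Aimp1, which binds tRNA and anchors the arginine enzyme, measured 81.7, 83.6 and 83.7 CPM in control and 83.4, 77.0 and 80.6 CPM with D-serine (log2 fold change -0.048, SE 0.048, edgeR adjusted p = 0.55). Aimp2, the central scaffold, measured 99.2, 110 and 108 CPM in control and 103, 97.6 and 100.1 CPM with D-serine (-0.079, SE 0.050, adjusted p = 0.33). Eef1e1, which links the complex with elongation factor 1, measured 51.5, 54.2 and 57.5 CPM in control and 60.2, 53.4 and 56.0 CPM with D-serine (0.054, SE 0.060, adjusted p = 0.59). All 3 have short exonic sequences, 1122 bases in Aimp1, 1185 in Aimp2 and 1039 in Eef1e1, against a median of 2834.5 in all tested genes. With the length trend of each library removed, Aimp1 and Aimp2 were called lower, at -0.13 (edgeR adjusted p = 0.036) and -0.16 (0.016). Eef1e1 then turned from 0.054 to -0.029, without a call (edgeR adjusted p = 0.72). Aimp2 shares 14 exonic bases with Eif2ak1 on the opposite strand.

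A further 14 genes of tRNA charging, editing and export, listed from general knowledge, had mostly positive fold changes. Of these, 12 had a positive sign, 3 were called higher and 1 lower, against 4.84% and 4.9% of all tested genes, and their median log2 fold change was 0.13. Dtd1 and Aarsd1 were among the genes called higher. Dtd1 encodes a D-aminoacyl-tRNA deacylase, which frees tRNA from D-amino acids. It measured 25.4, 24.6 and 27.4 CPM in control and 35.1, 29.3 and 30.6 CPM with D-serine, with no overlap and the highest value in D-serine replicate 1. The log2 fold change was 0.30 (SE 0.077, edgeR adjusted p = 0.031).

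Aarsd1 encodes an editing protein related to the alanine enzyme that removes wrongly attached serine from alanine tRNA. It measured 59.5, 64.5 and 68.4 CPM in control and 80.6, 72.4 and 74.8 CPM with D-serine, also without overlap (log2 fold change 0.24, SE 0.061, edgeR adjusted p = 0.028). Dtd2, a second gene named for D-aminoacyl-tRNA deacylase, measured 17.9, 15.7 and 20.8 CPM in control and 21.3, 19.6 and 22.1 CPM with D-serine. Its libraries overlapped and it was not called (0.21, SE 0.095, edgeR adjusted p = 0.16).

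Xpot, the export receptor that carries tRNA out of the nucleus, was the gene called lower. It measured 565, 570 and 569 CPM in control and 476, 507 and 509 CPM with D-serine, with the groups well apart (log2 fold change -0.19, SE 0.041, edgeR adjusted p = 0.016). Dtd1 and Xpot lost their calls without any 1 of the 3 control libraries or D-serine replicate 3, and Aarsd1 without control replicate 1, control replicate 2 or D-serine replicate 3, with highest adjusted p-values of 0.13 for Dtd1, 0.086 for Xpot and 0.13 for Aarsd1. All 3 also lost their calls with the replicate number as a block, and kept them without D-serine replicate 1. Calls were kept in 11 of the 16 alternatives for Dtd1 and Xpot and in 12 for Aarsd1.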

How the data were processed

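Raw read counts of 6 libraries were deposited by the authors as 1 table (poly(A) RNA), with the summed exonic length of each gene, per the file headers. The submitters' processing notes name Trim Galore, HISAT2, featureCounts and the builds GRCm38 and mm10. The strand setting is not given in the sources used here. The deposited exon coordinates are not those of GRCm38: of 23125 symbols matched to RefSeq GRCm38.p6, 313 had the same start. They are therefore printed as deposited, with no build named, and only promoter windows carry GRCm38.p6 coordinates. Those sequences are from RefSeq, matched by symbol or synonym for 29 of the 38 genes. Columns named vehicle were assigned to the control samples of the same number. The table had 27 symbols turned into dates, none of them reported.

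Counts were tested with edgeR 4.0.16 in R 4.3.3 (filterByExpr, TMM scaling, quasi-likelihood F test, no covariate), two-sided, with Benjamini-Hochberg adjustment over the 13366 genes tested and a threshold of 0.05. All 38 genes passed the filter. The standard error is the size of the log2 fold change divided by the square root of F. The fit was tested on simulated data, in which all genes had the same relative spread, with no library set apart and no length trend. It recovered 33% of 100 genes changed by 0.25 on the log2 scale and 81% of 100 genes changed by 0.5. A gene without a call may therefore still have changed by a small amount. The changed genes were drawn from all tested genes, so these shares are not estimates for the 38 genes. Alternatives were DESeq2 1.42.0, limma-voom (limma 3.58.1), other scalings, other filters, a block for the replicate number, subtraction of a length trend per library (natural spline, 5 degrees of freedom), the same with the block, and leaving out each library.

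The genes and lists were chosen with earlier results of these data known. Values per library are given for every called gene, the scaffold genes, the enzymes for serine, glycine and cysteine, the 4 mitochondrial genes with the smallest p, and, of the further 14 genes, those called and Dtd1, Dtd2 and Aarsd1, except where an item is not reported here. Other genes with values per library were singled out after their values were seen.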

Additional observations from a re-analysis of the deposited data

How the results depend on the processing

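The 5 cytosolic genes called lower became 2 under upper quartile scaling and 2 with library totals. The cause of these and the following shifts was not tested. Cytosolic genes called higher went from 0 to 1 with the DESeq2 Wald test, upper quartile scaling, library totals, no filter on low counts or a mean of at least 50 counts, and to 2 with the length trend removed, alone or with the replicate block. Mitochondrial genes called lower went from 0 to 1 with the length trend removed, alone or with the block, and those called higher to 1 in the same fits and under upper quartile scaling or library totals. The scaffold genes called went from 0 to 2 with the length trend removed and to 1 with that and the block. The medians of the cytosolic and mitochondrial genes moved to -0.0089 and 0.042 under upper quartile scaling and to -0.0096 and 0.042 with library totals. Over all genes, 2043 were called with the length trend removed, against 1302. Leaving out 1 library gave 68 (without control replicate 2) to 1699 (without D-serine replicate 1) genes in all, 1 to 7 cytosolic genes lower, 0 to 1 higher, 0 to 1 mitochondrial genes lower, 0 to 2 higher, a cytosolic median of -0.057 to -0.023 and a mitochondrial median of -0.012 to 0.055, negative without D-serine replicate 2. None of the 38 genes was called in opposite directions by 2 of these analyses.

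The replicate number as a block left 298 genes called in all and 1 cytosolic gene lower, Cars. The numbers share no stated origin: the deviations of same-numbered libraries correlated at -0.069, 0.020 and -0.019, and not every library correlated best with its own number. The mitochondrial genes had fewer counts than the cytosolic genes, which limits the precision of their fold changes.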

Other observations

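The cytosolic enzymes fall into 2 unrelated catalytic classes that differ in the fold of the active site. Of the 9 genes of class I, Cars, Iars, Vars and Yars were called lower by edgeR's quasi-likelihood test, and the median log2 fold change was -0.063. Of the 10 genes of class II, Tars was the 1 gene called lower, and the median was -0.032. Genes called lower were 4.9% of all tested genes, and the 1 of 10 in class II is not far from that share. Negative signs numbered 7 in each class. Eprs, which holds an active site of each class, was left out of both and had a log2 fold change of 0.058 (SE 0.039). The difference between the classes was not tested.

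Farsa and Farsb, which encode the subunits of the cytosolic phenylalanine enzyme, had log2 fold changes of -0.047 (SE 0.048) and -0.017 (SE 0.042). Farsb shares 265 of its 2539 exonic bases with Sgpp2 of the other strand, which makes its counts uncertain. Hars and Hars2, the histidine enzymes, lie next to each other on opposite strands of chromosome 18 and had log2 fold changes of -0.016 (SE 0.049) and 0.090 (SE 0.063).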
